A study of Mus musculus with 16 samples.

Results

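Retinoic acid (RA) was given to embryoid bodies (EBs) together with doxycycline (Dox), and the induced hair cell-like cells (iHCs) sorted from them at day 8 were compared with iHCs made with Dox alone. The comparison takes its members from the sample titles: 3 arrays titled iHCs_Dox+RA Day 8 against 3 titled iHCs_Dox Day 8, together 6 of the 16 arrays of the series. It was made across 22180 genes, each represented by 1 log2 value per array.

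All cells came from 1 mouse embryonic stem cell line, iGPA-Myo7a:mVenus, in which Dox induces Gfi1, Pou4f3 and Atoh1, transcription factors that hair cells need, and a Myo7a reporter drives the fluorescent protein mVenus. EBs floated in medium with 10% serum, and Dox or Dox and RA were given from day 4, so that the cells had 4 days of treatment when they were dissociated and mVenus-positive cells were sorted by flow cytometry. The dose of RA is not given in the sources used here. Both groups of the comparison therefore carried the 3 induced factors and the sort, and differed in RA. Control EBs of day 8 (n = 2) had neither agent and were not sorted, and they serve here to show the level of a gene in the unsorted culture. The iHCs of day 12 (3 arrays with Dox, 3 with Dox+RA, after 8 days of treatment) give the same contrast on other arrays. The replicates are called biological and came from separate RNA preparations, but the labels do not say whether they came from separate EB cultures, and p-values measure the spread between these samples.

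RA is a small lipid hormone made from vitamin A by retinol and retinaldehyde dehydrogenases, held in the cell by the binding proteins of the CRABP family and destroyed by the CYP26 enzymes. It binds the nuclear receptors RAR, which sit on DNA with their partners RXR at pairs of short repeated motifs, and it switches on genes that place cells along the body axis, the Hox genes among them, as well as genes that break RA down again. In the inner ear RA patterns the otic vesicle and is known to promote the differentiation of hair cells, which carry a bundle of actin-filled stereocilia that opens ion channels when it is bent.

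The induced factors were on in every iHC array. Atoh1 read 10.99, 10.88 and 10.91 on the Dox arrays, 11.06, 11.18 and 11.51 on the Dox+RA arrays and 4.71 and 5.07 in control EBs (log2 signal). RA changed none of the 3 beyond the threshold: the differences were 0.32 ± 0.13 for Atoh1 (limma's adjusted p = 0.18), 0.10 ± 0.17 for Pou4f3 (adjusted p = 0.83) and 0.09 ± 0.10 for Gfi1 (adjusted p = 0.74), where ± is the standard error of limma's fit and a difference is always Dox+RA minus Dox on the log2 scale. The probes may read both the transgene and the cell's own gene. Hair cell markers as a whole (12 genes) averaged 8.75 to 9.19 on the Dox arrays and 9.46 to 9.59 on the Dox+RA arrays against 5.26 to 5.40 in control EBs. The 12 include the 3 induced factors and Myo7a, whose reporter was used in the sort, so part of the gap to control EBs was set by the design. With RA 5 of the 12 rose, where 2.05% of all genes were called higher and 2.89% lower. Of the risen markers, Myo7a, Otof and Lhx3 lost their calls without Dox replicate 2 or 3. Markers of neurons (7 genes, 6.05 to 6.59 with Dox and 6.28 to 6.56 with RA), of endothelium and blood (7 genes, 4.83 to 5.24 and 4.98 to 5.39), of endoderm (4 genes, 4.96 to 5.43 and 5.02 to 5.22) and of pluripotent cells (5 genes, 4.64 to 5.19 and 4.53 to 4.64) had 0 called members. Cardiac muscle markers (4 genes) had 0 called members too, but their means did not overlap, at 5.67 to 5.95 with Dox and 5.18 to 5.62 with RA. Of 6 supporting cell markers 1 fell, Jag1, and their means were 6.28 to 6.61 with Dox and 6.15 to 6.35 with RA. The files hold no detection calls, so a low signal cannot be called absent.

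Dox and Dox+RA arrays were about equally alike within their groups, and the Dox arrays were farther apart on the first principal component. Arrays correlated at 0.988 to 0.993 within Dox, at 0.988 to 0.994 within Dox+RA and at 0.975 to 0.990 between the groups. On the first principal component of all 16 arrays, which holds 74.8% of the variance and runs from control EBs (-94.64 to -90.0 over both days) to iHCs, Dox replicates 1, 2 and 3 stood at 21.93, 8.4 and -0.59 and Dox+RA replicates at 36.75, 33.6 and 32.49. Dox replicate 1 lay nearest to the Dox+RA arrays and Dox replicate 3 farthest from them, and the gene calls and the counts of the gene lists were recomputed without each of the 6 arrays.

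RA changed 1094 of 22180 genes at a limma adjusted p under 0.05 (4.93%), 454 of them higher (2.05%) and 640 lower (2.89%). Of these, 250 (1.13%) changed 2-fold or more, 115 up (0.518%) and 135 down (0.609%). The median difference of all genes was 0.02. The 3 arrays of one group lay wholly above the 3 of the other for 2629 genes that were higher with RA (11.9%) and 2660 that were lower (12%), and for 1083 of the called genes (4.88% of all genes). Nearly all called genes thus had groups that did not overlap, and the largest rises and falls were picked from such genes. Where a called gene is said below to have groups apart, this describes its arrays and adds no support. The count depends on single arrays: it was 1559 without Dox replicate 1 (7.03%), 333 without replicate 2 (1.5%) and 416 without replicate 3 (1.88%), and 625 (2.82%), 546 (2.46%) and 828 (3.73%) without Dox+RA replicates 1, 2 and 3. The background for counts without 1 array moved with it: without Dox replicates 1, 2 and 3 it was 2.67%, 0.73% and 0.852% for genes higher with RA and 4.36%, 0.771% and 1.02% for genes lower with RA, and without Dox+RA replicates 1, 2 and 3 it was 1.42%, 0.969% and 1.7% for higher and 1.4%, 1.49% and 2.03% for lower genes. With the replicate number as a block it was 2230 (10.1%; 966 higher, 4.36%, and 1264 lower, 5.7%), which took in 1087 of the 1094. In all, 292 genes (143 higher, 149 lower) were called with every array in place, without each of the 6 arrays in turn and with the block. Unless a paragraph says otherwise, the genes named below as risen or fallen kept their call without each of these 6 arrays. The comparison and its gene lists were chosen with earlier results of these data known. The list counts below, those of the interferon, stereocilia and mitosis lists included, therefore describe the listed genes. Setting them beside the shares over all genes is not an independent test.

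**Figure D1:**
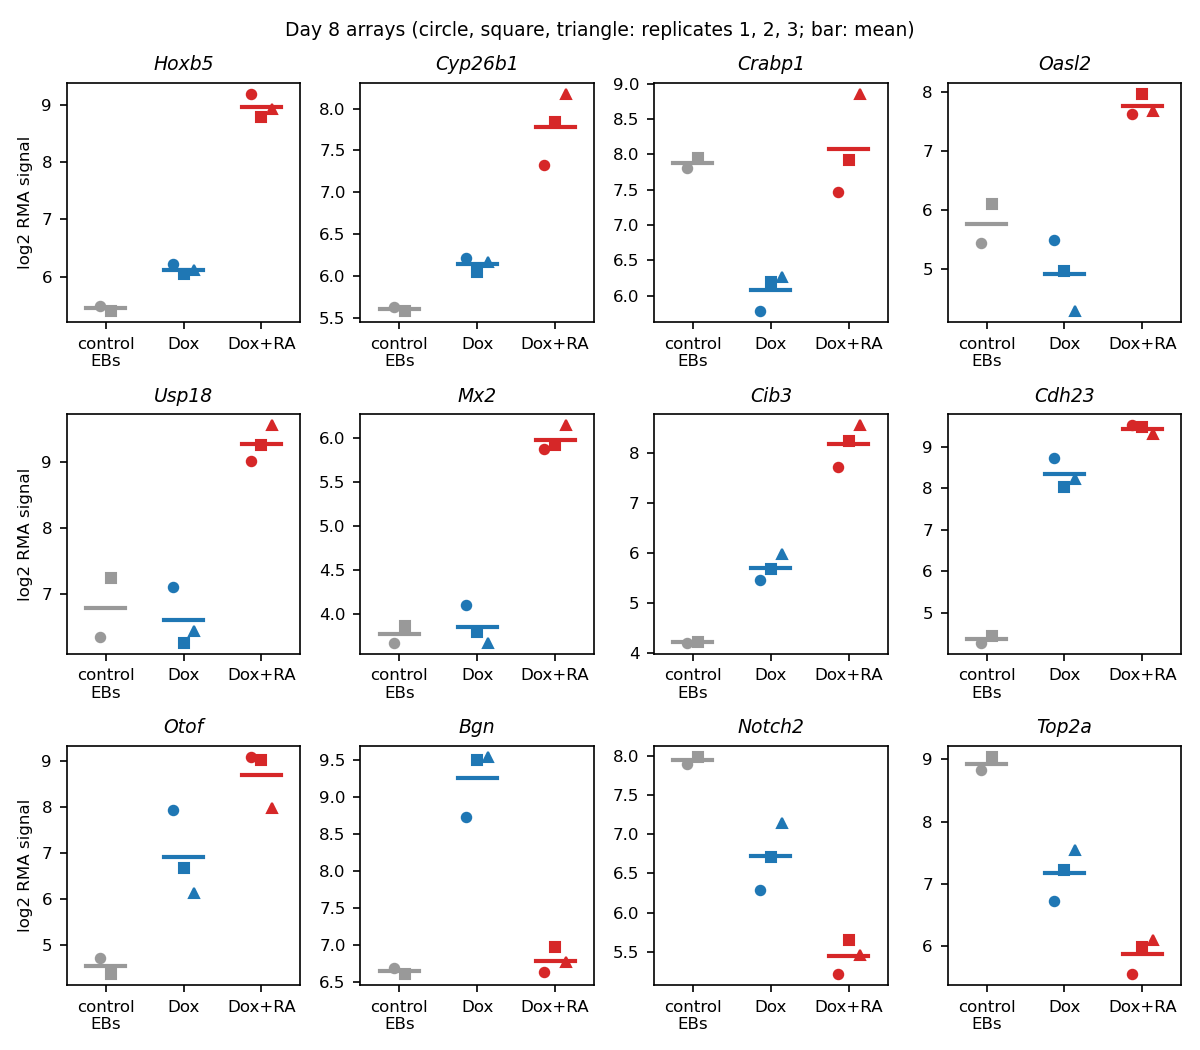
Log2 RMA signal of 12 genes on the day 8 arrays: control EBs (grey, n = 2), Dox (blue, n = 3) and Dox+RA (red, n = 3), each symbol 1 array and each bar a group mean, with an axis of its own per gene. Hoxb5 lies between 8.79 and 9.20 on the Dox+RA arrays and between 6.04 and 6.21 on the Dox arrays, whereas for Otof the Dox array of replicate 1 (7.93) comes close to the lowest Dox+RA array (7.97).

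Cyp26b1 was the 1 of 3 measured CYP26 genes that rose. Of the 4 measured genes for retinoid breakdown 2 rose and 0 fell, with a median difference of 0.92, against 2.05% of all genes called higher. Cyp26b1, which oxidises RA, read 6.22, 6.05 and 6.17 with Dox and 7.32, 7.84 and 8.18 with RA. The groups did not overlap, control EBs read 5.64 and 5.58, and the rise was 1.63 ± 0.21 (adjusted p = 0.0007). Dhrs3, which turns retinaldehyde back into retinol, read 4.65, 4.97 and 5.86 with Dox and 6.31, 6.08 and 6.24 with RA, a rise of 1.05 ± 0.24 (adjusted p = 0.023). Of the 6 arrays only Dox replicate 3 could be left out with the call kept, and the call was also lost in a fit to the 6 arrays alone (adjusted p 0.0018 to 0.11 over its alternatives). Cyp26a1 read 4.47, 4.56 and 5.44 against 5.53, 5.39 and 5.93, so that the groups overlapped, and its difference of 0.80 ± 0.27 was not called (adjusted p = 0.12) until the replicate block was added (adjusted p = 0.021). Cyp26c1 differed by 0.06 ± 0.12 (adjusted p = 0.85).

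Among 29 genes of retinoid synthesis and transport 2 rose and 1 fell, against 2.05% of all genes called higher and 2.89% lower, and the list's median was 0.07. Crabp1, which binds RA in the cytoplasm, read 5.78, 6.20 and 6.27 with Dox and 7.46, 7.92 and 8.86 with RA, a rise of 2.0 ± 0.38 (adjusted p = 0.0083). Control EBs, at 7.80 and 7.95, lay within the range of the Dox+RA arrays and above all Dox arrays. Lrat, which stores retinol as an ester, rose by 0.60 ± 0.10 (adjusted p = 0.0042) from 3.95, 3.96 and 4.09 to 4.42, 4.67 and 4.70. Adh5, an alcohol dehydrogenase, fell by 0.72 ± 0.12 on the log2 scale (adjusted p = 0.0034). The enzymes that make RA were not called: Aldh1a1 differed by 0.34 ± 0.13 (adjusted p = 0.16), Aldh1a2 by -0.22 ± 0.44 (adjusted p = 0.86), Aldh1a3 by -0.03 ± 0.11 (adjusted p = 0.94) and Rdh10 by 0.11 ± 0.13 (adjusted p = 0.75). Neither was the retinol importer Stra6 (0.32 ± 0.21, adjusted p = 0.45) or the second binding protein gene Crabp2 (-0.41 ± 0.33, adjusted p = 0.57).

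The receptors showed 0 rises and 2 falls among 20 receptor and co-regulator genes, with a median of -0.04, against 2.05% of all genes called higher and 2.89% lower. Rarb, the receptor gene that RA itself induces in many cells, read 4.66, 5.18 and 6.06 with Dox and 5.98, 6.05 and 6.08 with RA. The Dox+RA arrays were tight and Dox replicate 3 lay among them, and the difference of 0.74 ± 0.27 was not called (adjusted p = 0.13). Rara (0.07 ± 0.10, adjusted p = 0.78) and Rarg (0.17 ± 0.14, adjusted p = 0.60) were not called either. The 2 falls were the RXR gene Rxra (-0.50 ± 0.11, adjusted p = 0.017) and the co-regulator gene Tbl1x (-0.52 ± 0.11, adjusted p = 0.012). Both calls were lost without Dox replicate 2 or 3 or Dox+RA replicate 1, and that of Rxra also without Dox+RA replicate 2 and on the 6 arrays alone (adjusted p 0.0051 to 0.090 for Rxra and 0.0016 to 0.060 for Tbl1x over their alternatives).

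The wider list of genes known to respond to RA, which shares members with the breakdown and Hox lists, had 6 rises and 0 falls among 31 measured genes with a median of 0.08. The share of all genes called higher was 2.05%. The count of rises was 4 without Dox replicate 1 or 2 or Dox+RA replicate 2 or 3, 6 without Dox+RA replicate 1, 9 without Dox replicate 3 and 9 with the block. Its risen members were Hoxb5, Hoxb4, Cyp26b1, Meis2, Dhrs3 and Zfp503. Meis2, a homeobox partner of Hox proteins, read 7.91, 7.57 and 7.66 with Dox and 8.89, 8.97 and 8.56 with RA, a rise of 1.10 ± 0.13 (adjusted p = 0.00032), and it was the only 1 of 10 TALE homeobox cofactor genes to rise. Zfp503 rose by 0.93 ± 0.24 (adjusted p = 0.036) and kept its call only without Dox replicate 3 among the arrays of the comparison. Stra8, the germ cell gene named for its stimulation by RA, differed by 0.01 ± 0.11 (adjusted p = 0.97).

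The promoters of these genes are shown because RAR and RXR bind pairs of 6-base motifs. RefSeq windows of GRCm38.p6, from 250 bases before to 50 after a gene's start, were matched by symbol for 16990 of the tested genes and searched on both strands for 2 motifs in the same direction with 5 bases between them, each motif being AGGTCA or the variant AGTTCA, the variant GGTTCA or the variant GGGTCA. The arrangement was found in 32 of 32851 windows (0.0974%) and in 13 of the 16990 genes (0.0765%), where a gene counted if any of its windows held it. In the list of RA response genes 2 of the 21 genes with a window held it, Cyp26a1 and Rarb, neither of them called here. It was found in 0 of the 344 genes with a window that rose and in 0 of the 508 that fell. The stretches around both matches are given from 5′ to 3′ with the pair and its spacer in capitals. In Cyp26a1 the pair reads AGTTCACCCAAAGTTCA on the other strand and starts at position -32 from the gene's start, and in Rarb it starts at position -53.

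Cyp26a1, chr19:37697751-37697817, forward strand: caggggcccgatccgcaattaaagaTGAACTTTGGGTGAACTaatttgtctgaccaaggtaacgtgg

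Rarb, chr14:16575488-16575554, reverse strand: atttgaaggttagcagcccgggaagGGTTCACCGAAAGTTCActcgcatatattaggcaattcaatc

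Spacers of 2 bases and of 1 base were found in 0 of the 21 genes. Of the listed genes that rose, those with the largest differences and a window were Hoxb4, Cyp26b1 and Meis2, and none of their windows held a pair at any of the 3 spacings. They are printed whole, in lower case throughout since nothing in them matched.

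Hoxb4, chr11:96318017-96318316, forward strand: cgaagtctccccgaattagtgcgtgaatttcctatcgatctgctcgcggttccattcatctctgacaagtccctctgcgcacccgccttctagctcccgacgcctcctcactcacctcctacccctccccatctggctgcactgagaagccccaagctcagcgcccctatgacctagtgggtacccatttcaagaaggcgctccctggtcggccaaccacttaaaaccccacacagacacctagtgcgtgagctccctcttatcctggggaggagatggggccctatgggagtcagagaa

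Cyp26b1, chr6:84593761-84594060, reverse strand: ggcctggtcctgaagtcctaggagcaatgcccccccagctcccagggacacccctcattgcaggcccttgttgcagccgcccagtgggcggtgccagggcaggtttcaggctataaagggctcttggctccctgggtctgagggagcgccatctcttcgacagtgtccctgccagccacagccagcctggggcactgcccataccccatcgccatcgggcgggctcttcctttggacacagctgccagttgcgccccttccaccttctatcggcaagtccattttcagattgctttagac

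Meis2, chr2:116064570-116064869, reverse strand: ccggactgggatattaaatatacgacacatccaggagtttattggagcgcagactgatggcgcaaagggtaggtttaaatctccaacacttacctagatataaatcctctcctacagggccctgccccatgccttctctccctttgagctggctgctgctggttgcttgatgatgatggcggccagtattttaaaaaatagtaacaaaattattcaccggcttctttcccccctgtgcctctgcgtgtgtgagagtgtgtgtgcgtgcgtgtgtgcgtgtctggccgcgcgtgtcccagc

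Hox genes changed in the HoxB cluster. Of 10 measured HoxB genes 6 rose and 0 fell, with a median of 0.99, whereas 0 of 9 HoxA, 0 of 9 HoxC and 0 of 8 HoxD genes were called. The shares over all genes were 2.05% called higher and 2.89% lower. At an unadjusted p under 0.05, 8 HoxB, 2 HoxA and 0 HoxC genes were higher and 4 HoxD genes were lower, against 8.7% of all genes higher and 10.2% lower at that p. Whether the clusters differ was not tested. Hoxb5 read 6.21, 6.04 and 6.11 with Dox and 9.20, 8.79 and 8.93 with RA, a rise of 2.85 ± 0.18 (adjusted p = 1.9e-06). Control EBs read 5.49 and 5.39, below the Dox arrays. A second entry of Hoxb5 on the array, dimmer over the 16 arrays, differed by 0.49, and the mean of both gave 1.67. Hoxb4 rose by 1.76 ± 0.21 (adjusted p = 0.00032) from 5.01, 4.89 and 5.30 to 7.32, 6.55 and 6.60. Hoxb3 rose by 1.49 ± 0.14 (adjusted p = 9.1e-05) from 4.85, 5.07 and 5.33 to 6.77, 6.32 and 6.63. Hoxb2 rose by 1.24 ± 0.17 (adjusted p = 0.0010) from 3.08, 3.48 and 3.61 to 4.90, 4.39 and 4.61. For these 4 genes each Dox+RA array lay above each Dox array.

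At the ends of the cluster the changes were smaller or less certain. Hoxb1, which marks the fourth hindbrain segment, read 5.75, 6.21 and 7.14 with Dox and 6.84, 7.56 and 8.34 with RA. In both groups it was lowest in replicate 1 and highest in replicate 3, the groups overlapped, and the difference of 1.21 ± 0.34 was not called without the block (adjusted p = 0.055) and was with it (adjusted p = 0.0063). Hoxb8 rose by 0.78 ± 0.16 (adjusted p = 0.013; lost without Dox replicate 2 or Dox+RA replicate 1, 0.0036 to 0.080 over its alternatives) and Hoxb6 by 0.54 ± 0.15 (adjusted p = 0.046; lost without any 1 of the 6 arrays and under several other alternatives, 0.012 to 0.21 over its alternatives). Hoxb7 differed by 0.35, Hoxb9 by 0.14 and Hoxb13 by -0.13, and these were not called. The nearest member of another cluster was Hoxa4 at 0.48 (adjusted p = 0.094). Of 29 genes that mark forebrain, midbrain and hindbrain position 0 rose and 1 fell. Over all genes 2.05% were called higher and 2.89% lower, so this count lies near the shares over all genes.

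**Figure D2:**
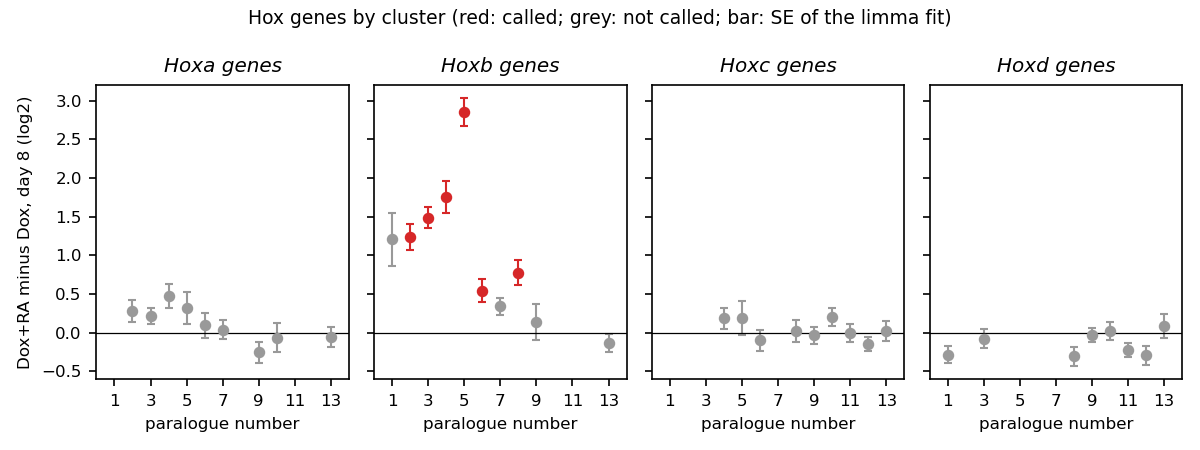
Difference between Dox+RA and Dox iHCs at day 8 (log2, y) for each measured Hox gene by its paralogue number (x) in the 4 clusters, with the standard error of limma's fit, red where called and grey where not. The red points are Hoxb2, Hoxb3, Hoxb4, Hoxb5, Hoxb6 and Hoxb8, and Hoxb5 stands highest at 2.85.

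Interferon-stimulated genes, whose products sense and block viruses, rose as a group. Of 42 measured members 21 rose and 0 fell, against 2.05% of all genes called higher, and the median was 0.48. The count was 17 to 22 when 1 array of the comparison was left out and 24 with the block. Oasl2, of the oligoadenylate synthetase family, read 5.50, 4.97 and 4.29 with Dox, 7.62, 7.96 and 7.68 with RA and 5.44 and 6.09 in control EBs, a rise of 2.84 ± 0.25 (adjusted p = 5.3e-05). Usp18, a protease that removes ISG15 and restrains interferon signalling, read 7.10, 6.27 and 6.45 with Dox and 9.01, 9.26 and 9.55 with RA, a rise of 2.67 ± 0.26 (adjusted p = 9.1e-05). Mx2, a GTPase, read 4.10, 3.79 and 3.67 with Dox and 5.88, 5.92 and 6.15 with RA, a rise of 2.13 ± 0.12 (adjusted p = 9.7e-07). In each of these 3 genes the lowest Dox+RA array stood above the highest Dox array and above both control EB arrays.

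The rises covered several arms of the response. Sensors of viral RNA rose, Ddx58 by 1.97 ± 0.21 (adjusted p = 0.00017) and Ifih1 by 1.54 ± 0.17 (adjusted p = 0.00017). Oas1b, Parp12 and Gbp7, which are not in the list but belong to the same families, were among the largest rises of all genes, at 2.39 ± 0.24 (adjusted p = 9.9e-05), 2.21 ± 0.26 (adjusted p = 0.00032) and 2.04 ± 0.16 (adjusted p = 1.9e-05). Of the listed effectors Ifit1 rose by 1.87 ± 0.17 (adjusted p = 5.3e-05) and Bst2, which tethers virus particles to the cell, by 1.52 ± 0.20 (adjusted p = 0.00077). Parp9 read 4.16, 4.15 and 4.15 with Dox and 5.51, 6.17 and 6.12 with RA. Of the factors that carry the interferon signal to DNA, Irf9 rose by 1.14 ± 0.12 (adjusted p = 0.00017) and Stat2 by 0.62 ± 0.11 (adjusted p = 0.0064). Not every member moved: Ifit3 differed by 0.12, Irf7 by 0.25, Mx1 by 0.24 and Dhx58 by 0.01, and 21 members in all were not called. Members of these families have near copies in the genome (the Oas, Gbp, Ifit and Mx genes), and probes may read more than 1 of them. In antigen presentation, a list made after the values were seen, 3 of 13 genes rose and 0 fell, against 2.05% of all genes called higher, a count that describes the genes picked. Among them H2-T23 rose by 1.25 ± 0.19 (adjusted p = 0.0017) and Tapbp by 0.85 ± 0.11 (adjusted p = 0.00049), whose second entry differed by 0.21.

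Control EBs lay between the 2 iHC groups on the mean of this list, at 5.19 and 5.35, with the Dox arrays at 4.95, 4.87 and 4.98 and the Dox+RA arrays at 5.55, 5.73 and 5.80. The 3 Dox arrays were close together here, although they were spread on the first principal component. The 7 markers of endothelium and blood, which include the leukocyte gene Ptprc, had 0 called members and ranged from 4.83 to 5.24 with Dox and from 4.98 to 5.39 with RA. Their part in the rise of the interferon genes was not tested.

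Promoters of risen members held, in 9 of 15 genes with a window, the core motif to which STAT and IRF factors bind, 2 copies of GAAA with 2 bases between them, a search added after the values were seen. The motif was counted on either strand. Its share was 60% in these called members and 5 of 17 in members that were not called (29.4%), against 657 of 16990 genes (3.87%). Of all genes with a window that rose 23 of 344 held it (6.69%), and of all that fell 18 of 508 (3.54%). The stretches around the matches are printed for 5 of the 9 and for Gbp7, which rose but is not in the list, from 5′ to 3′ with the motif in capitals (it reads as 2 copies of TTTC where it lies on the other strand).

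Ifit1, chr19:34640760-34640838, forward strand: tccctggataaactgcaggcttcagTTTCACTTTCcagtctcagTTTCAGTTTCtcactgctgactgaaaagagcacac

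Gbp7, chr3:142530258-142530317, forward strand: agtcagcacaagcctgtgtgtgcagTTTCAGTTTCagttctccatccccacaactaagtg

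Bst2, chr8:71537562-71537627, reverse strand: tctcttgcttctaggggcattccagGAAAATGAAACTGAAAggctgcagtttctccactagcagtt

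Rsad2, chr12:26456538-26456597, reverse strand: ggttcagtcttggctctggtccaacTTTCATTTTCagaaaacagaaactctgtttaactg

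Gbp3, chr3:142559974-142560039, forward strand: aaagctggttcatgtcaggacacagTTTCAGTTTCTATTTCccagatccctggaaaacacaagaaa

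Isg15, chr4:156200850-156200921, reverse strand: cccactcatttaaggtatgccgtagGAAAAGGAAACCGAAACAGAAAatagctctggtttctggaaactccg

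Of these 6, Rsad2 rose by 1.22 ± 0.17 (adjusted p = 0.0012) and Gbp3 by 1.10 ± 0.12 (adjusted p = 0.00016). Isg15 rose by 0.51 ± 0.13 (adjusted p = 0.030) with 3 overlapping copies of the motif in its window, and lost its call without Dox replicate 2 or 3 or Dox+RA replicate 2 or 3 (adjusted p 0.019 to 0.125 over the 6 exclusions).

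Genes of the hair bundle were among those that rose. Of 33 measured genes of stereocilia and mechanotransduction 12 rose and 1 fell, with a median of 0.49, against 2.05% of all genes called higher. The mean level of the list was 5.93, 5.65 and 5.60 on the Dox arrays, 6.40, 6.42 and 6.18 on the Dox+RA arrays and 4.76 and 4.78 in control EBs. Of 28 genes of hair cell identity 5 rose and 1 fell (median 0.36), and of 27 genes of the ribbon synapse and exocytosis 3 rose and 1 fell (median 0.30). With the block the rises were 19, 10 and 10 of the same lists. Leaving out Dox replicate 2 or 3, or Dox+RA replicate 1 or 2, cut the stereocilia count to 4 each time, while 14 rose without Dox replicate 1. For hair cell identity the counts without Dox replicates 1, 2 and 3 and Dox+RA replicates 1, 2 and 3 were 8, 1, 1, 4, 2 and 5, and for the ribbon synapse 5, 1, 1, 1, 2 and 2. The stereocilia mean was highest in the Dox array with the lowest mitosis mean (replicate 1, mitosis mean 5.86 against 6.44 and 6.74), and the part of dividing cells in these rises was not tested.

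The bundle genes that kept their call without each array were Myo3b, Cdh23, Atp2b2 and Myo1h. Myo3b, a myosin that carries cargo to stereocilia tips, rose by 1.50 ± 0.29 (adjusted p = 0.0089) from 7.28, 6.58 and 6.03 to 8.15, 8.30 and 7.94. Cdh23, part of the tip link that pulls the channel open, read 8.74, 8.04 and 8.22 with Dox and 9.52, 9.49 and 9.31 with RA against 4.28 and 4.44 in control EBs, a rise of 1.10 ± 0.17 (adjusted p = 0.0028). Atp2b2, the calcium pump of the bundle, rose by 1.07 ± 0.16 (adjusted p = 0.0014) and Myo1h by 0.84 ± 0.12 (adjusted p = 0.0017). For each of the 4 genes the lowest Dox+RA array lay above the highest Dox array. The partner of Cdh23 in the tip link, Pcdh15, differed by 0.38 ± 0.11 (adjusted p = 0.075), and the channel gene Tmc1 by 0.44 ± 0.16 (adjusted p = 0.14).

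Other hair cell genes had rises of similar or larger size whose calls were lost when single arrays were left out. Over their alternatives the differences ran from 1.38 to 2.28 for Otof, 1.58 to 2.24 for Loxhd1, 0.84 to 1.31 for Myo7a and 0.74 to 1.06 for Lhx3. The count of calls over all genes fell in the same exclusions. Otof, needed for transmitter release from the ribbon synapse, read 7.93, 6.68 and 6.15 with Dox and 9.09, 9.01 and 7.97 with RA, with 4.72 and 4.38 in control EBs. Within each group replicate 3 was lowest, and Dox replicate 1 stood just below Dox+RA replicate 3. The rise of 1.77 ± 0.42 had an adjusted p of 0.025, of 0.000214 with the block, and lost its call without Dox replicate 2 or 3 or Dox+RA replicate 1 or 2, on the 6 arrays alone and on the 12 iHC arrays (up to 0.125). Loxhd1, a stereocilia membrane protein, rose by 1.83 ± 0.38 (adjusted p = 0.013) from 6.48, 5.43 and 5.21 to 8.00, 7.89 and 6.73, and lost its call without the same 4 arrays (0.00013 to 0.072 over its alternatives). Myo7a, whose reporter was used in the sort, read 8.48, 7.63 and 7.76 with Dox and 9.33, 9.19 and 8.40 with RA, so that the groups overlapped. Its rise was 1.02 ± 0.25 (adjusted p = 0.028), lost without the same 4 arrays and on the 6 arrays alone (0.0037 to 0.14 over its alternatives). Lhx3 rose by 0.89 ± 0.18 (adjusted p = 0.011; lost without Dox replicate 2 or 3, 0.0018 to 0.062 over its alternatives).

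Of the remaining genes tied to hair cells, Srrm4, a splicing factor of neurons and hair cells, rose by 1.53 ± 0.20 (adjusted p = 0.00068) from 7.95, 7.35 and 6.99 to 8.96, 9.15 and 8.76. Cabp2, a calcium sensor of the hair cell synapse, rose by 1.05 ± 0.17 (adjusted p = 0.0032). The potassium channel genes Kcnh6 and Kcnh2 rose by 1.67 ± 0.30 (adjusted p = 0.0060) and 0.50 ± 0.09 (adjusted p = 0.0048), the 2 rises among 28 channel genes, of which 1 fell. Shares over all genes were 2.05% called higher and 2.89% lower. Outside the lists, Cib3, a calcium-binding protein of the transduction complex, read 5.46, 5.67 and 5.96 with Dox, 7.71, 8.24 and 8.54 with RA and 4.20 and 4.21 in control EBs, a rise of 2.47 ± 0.24 (adjusted p = 9.1e-05). Cldn9, a tight junction protein of the inner ear and also outside the lists, rose by 1.78 ± 0.22 (adjusted p = 0.00052). Fbxo2, a member of the otic and supporting cell list, rose by 1.16 ± 0.21 (adjusted p = 0.0060). Isl1, a LIM homeobox factor of early sensory progenitors and of neurons, fell by 1.33 ± 0.30 on the log2 scale (adjusted p = 0.021) from 9.72, 10.24 and 9.93 to 8.21, 8.80 and 8.88, with the call lost without Dox replicate 2 or 3 or Dox+RA replicate 1 or 2 (0.00074 to 0.11 over its alternatives).

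In motile cilia, a list made after the values were seen, 12 of 24 measured genes rose, 0 fell and 12 were not called (median 0.49), against 2.05% of all genes called higher. As the list was made with the values known, its count describes the genes picked and tests nothing. Rises numbered 10, 4 and 6 without Dox replicates 1, 2 and 3 and 11, 6 and 8 without Dox+RA replicates 1, 2 and 3. Cfap61, of the radial spokes of the axoneme, read 5.99, 5.70 and 5.45 with Dox and 6.69, 6.88 and 6.87 with RA, a rise of 1.10 ± 0.19 (adjusted p = 0.0053). Cfap206 rose by 0.94 ± 0.18 (adjusted p = 0.0078) and Ttc21a by 0.87 ± 0.14 (adjusted p = 0.0030). Foxj1, the master factor of motile cilia, rose by 0.48 ± 0.13 at an adjusted p of 0.0496 and lost its call without any of the arrays but Dox+RA replicate 1. Among the members not called were the dynein arm genes Dnah5 (0.06 ± 0.09, adjusted p = 0.80) and Dnah9 (-0.08 ± 0.08, adjusted p = 0.70), and Hydin (0.13 ± 0.10, adjusted p = 0.52), Rsph1 (0.04 ± 0.09, adjusted p = 0.88) and Mcidas (-0.02 ± 0.11, adjusted p = 0.96).

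**Figure D3:**
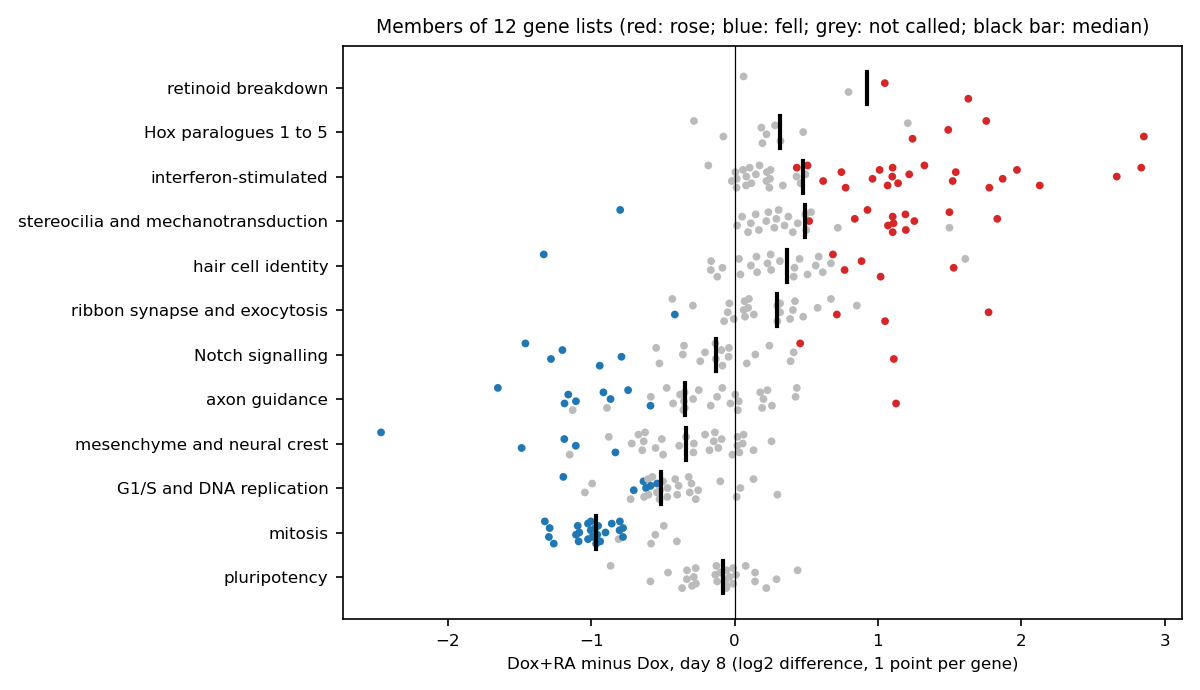
Difference between Dox+RA and Dox iHCs at day 8 (log2, x) of every measured member of 12 gene lists (y), 1 point per gene, red where it rose, blue where it fell and grey where not called, with the list's median as a black bar. Interferon-stimulated and stereocilia genes extend to the right with 21 and 12 red points, and 24 of 29 mitosis genes are blue.

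Genes of cell division fell. Of 29 measured mitosis genes 24 fell and 0 rose, against 2.89% of all genes called lower, and the median was -0.96. Of 32 genes of G1/S and DNA replication 6 fell and 0 rose (median -0.51), and of 7 genes of cyclin-dependent kinase inhibitors 0 were called. Top2a, which untangles replicated DNA, read 6.73, 7.22 and 7.55 with Dox, 5.55, 5.99 and 6.10 with RA and 8.82 and 9.04 in control EBs, a fall of -1.29 ± 0.18 (adjusted p = 0.0012). Cdk1, the kinase that starts mitosis, fell by 1.26 ± 0.22 on the log2 scale (adjusted p = 0.0044) from 6.42, 7.09 and 7.53 to 5.47, 5.96 and 5.82. Ccnb2 fell by 1.11 ± 0.18 (adjusted p = 0.0033), Tpx2 by 1.09 ± 0.16 (adjusted p = 0.0015) and Bub1b by 0.96 ± 0.18 (adjusted p = 0.0074). Ccnd3, a G1 cyclin, fell by 0.62 ± 0.10 (adjusted p = 0.0029).

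The size of this fall varied with the Dox array. The mean of the 29 mitosis genes was 5.86, 6.44 and 6.74 on Dox replicates 1, 2 and 3 and 5.18, 5.53 and 5.54 on the Dox+RA arrays, with 8.06 and 8.42 in control EBs. The groups did not overlap, and Dox replicate 3 stood nearest to control EBs. Falls numbered 29 without Dox replicate 1, 5 without replicate 2, 8 without replicate 3, 9 without Dox+RA replicate 1, 15 without replicate 2 and 21 without replicate 3, and 29 with the block. For the DNA replication genes the counts were 19, 1, 1, 1, 6 and 3, and 17 with the block. The median of the mitosis list stayed between -1.23 and -0.76 when each of the 6 arrays of the comparison was left out. Of the 3 measured markers of dividing cells 3 fell, and their mean ranged from 6.66 to 7.68 with Dox and from 5.65 to 6.15 with RA. Fewer dividing cells in the sorted fraction and less of these RNAs per cell cannot be told apart in bulk RNA.

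Matrix, adhesion and mesenchymal genes were among the deepest falls. Bgn, the matrix proteoglycan biglycan, read 8.74, 9.50 and 9.54 with Dox and 6.64, 6.98 and 6.77 with RA, a fall of -2.46 ± 0.29 (adjusted p = 0.0003). The Dox+RA arrays stood at the level of control EBs (6.69 and 6.61). A second entry of Bgn differed by -0.21, and the mean of both by -1.34. Vcan, the large proteoglycan versican, read 8.16, 8.67 and 8.63 with Dox and 5.62, 6.46 and 6.74 with RA (-2.21 ± 0.35, adjusted p = 0.0029). Igfbp5, which binds insulin-like growth factors, changed by -2.31 ± 0.31 (adjusted p = 0.00082), the gap junction gene Gja1 by -2.08 ± 0.35 (adjusted p = 0.0040), the fibronectin gene Fn1 by -1.48 ± 0.29 (adjusted p = 0.0085) and Edil3, a matrix ligand of integrins, by -1.83 ± 0.26 (adjusted p = 0.0013). Foxc1, a forkhead factor of mesoderm and neural crest, read 9.22, 9.38 and 9.57 with Dox, 7.04, 7.55 and 7.84 with RA and 6.46 and 6.81 in control EBs, a fall of -1.91 ± 0.23 (adjusted p = 0.00037). For each of these 7 genes the 2 iHC groups did not overlap, a condition under which the largest falls were picked.

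As lists, mesenchyme and neural crest had 5 falls and 0 rises among 33 measured genes (median -0.34), against 2.89% of all genes called lower. Without Dox replicates 1, 2 and 3 the falls numbered 9, 2 and 3, without Dox+RA replicates 1, 2 and 3 they numbered 2, 3 and 3, and with the block 10. The 7 mesenchyme markers averaged 4.69 to 4.95 with Dox and 4.45 to 4.65 with RA, with 0 called, against 8.99 to 9.43 in control EBs. Lum read 2.90, 2.72 and 2.62 with Dox and 2.89, 2.69 and 2.71 with RA, and 8.31 and 7.99 in control EBs. Col3a1 differed by 0.13 ± 0.14 (adjusted p = 0.70) and Postn by -1.15 ± 0.35 (adjusted p = 0.073, 0.010 with the block). The part of these markers and of the mitosis genes in the falls was not tested. In a list of adhesion and cytoskeleton genes made after the values were seen 17 of 27 fell and 0 rose, against 2.89% of all genes called lower. This count describes the genes picked and tests nothing. Falls numbered 18, 8 and 7 without Dox replicates 1, 2 and 3 and 9, 11 and 11 without Dox+RA replicates 1, 2 and 3. Anxa2, which links membranes to actin, read 6.87, 6.58 and 6.70 with Dox and 5.21, 5.18 and 5.03 with RA (-1.58 ± 0.12, adjusted p = 1.1e-05). Cdh11 changed by -1.22 ± 0.20 (adjusted p = 0.0030), Itga6 by -1.18 ± 0.21 (adjusted p = 0.0064) and Tubb6 by -1.11 ± 0.18 (adjusted p = 0.0035).

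**Figure D4:**
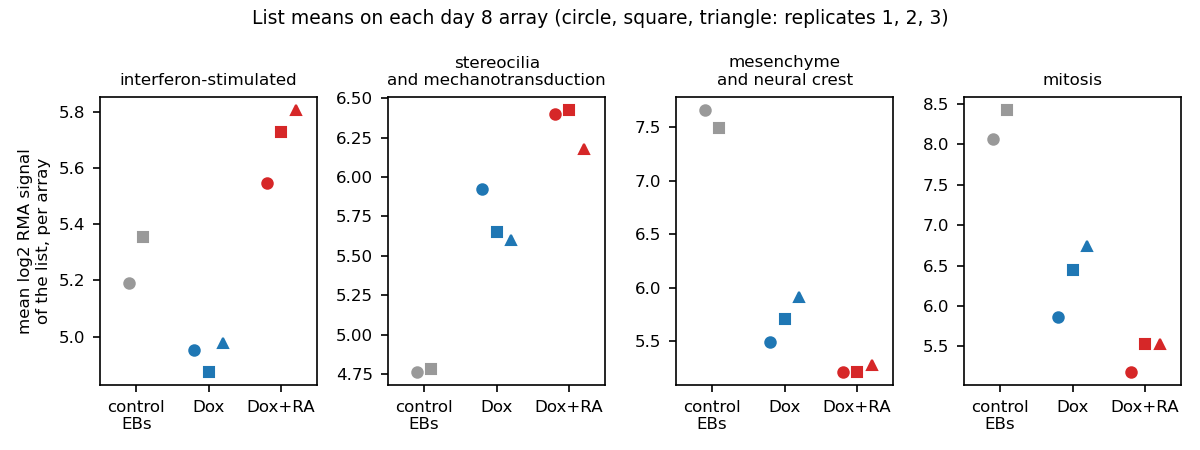
Mean log2 RMA signal of 4 gene lists on each day 8 array, in control EBs (grey, n = 2), Dox (blue, n = 3) and Dox+RA (red, n = 3), with replicates 1, 2 and 3 as circle, square and triangle. In the mitosis list the Dox arrays spread from 5.86 to 6.74 and the Dox+RA arrays lie from 5.18 to 5.54, while in the interferon-stimulated list the Dox arrays lie from 4.87 to 4.98.

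In Notch signalling, by which a forming hair cell keeps its neighbours from the same fate, the ligand gene Dll1 rose and the genes Notch2 and Hey1 fell. Of 24 measured genes 2 rose and 5 fell (median -0.13), against 2.05% of all genes called higher and 2.89% lower. With the block 3 rose and 8 fell, against 4.36% and 5.7% of all genes. Falls numbered 6 without Dox replicate 1 and 2 without any other of the 6 arrays. The ligand gene Dll1 read 5.94, 6.02 and 5.86 with Dox and 6.79, 6.97 and 7.40 with RA, a rise of 1.11 ± 0.14 (adjusted p = 0.00058), and its second entry differed by 0.95. The receptor gene Notch2 read 6.29, 6.71 and 7.15 with Dox and 5.21, 5.65 and 5.45 with RA, a fall of -1.28 ± 0.25 (adjusted p = 0.0084). The target gene Hey1 read 8.35, 8.56 and 8.49 with Dox and 7.54, 7.25 and 6.99 with RA, a fall of -1.20 ± 0.21 (adjusted p = 0.0049). Jag1, a ligand of supporting cells, changed by -1.46 ± 0.34 (adjusted p = 0.022) and Hes1, a repressor of Atoh1, by -0.94 ± 0.25 (adjusted p = 0.042). Both of these calls were lost without any of the 6 arrays but Dox replicate 1, and that of Hes1 also without 3 of the day 12 arrays (0.0026 to 0.11 for Jag1 and 0.00052 to 0.18 for Hes1 over their alternatives). Of 34 otic and supporting cell genes 1 rose, Fbxo2, and 2 fell.

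Of 35 measured genes that steer axons 8 fell, 1 rose and 26 were not called, with a median of -0.35. Over all genes 2.89% were called lower and 2.05% higher. Falls numbered 9, 4 and 7 without Dox replicates 1, 2 and 3 and 5, 8 and 7 without Dox+RA replicates 1, 2 and 3. The netrin receptor gene Unc5c read 6.27, 7.09 and 6.63 with Dox and 4.91, 4.99 and 5.15 with RA (-1.65 ± 0.24, adjusted p = 0.0013), while its relative Unc5a rose by 1.13 ± 0.20 (adjusted p = 0.0064) from 8.68, 8.33 and 7.86 to 9.57, 9.27 and 9.40. The semaphorin gene Sema3c changed by -1.19 ± 0.22 (adjusted p = 0.0068) and the ephrin receptor genes Epha5 and Epha7 by -1.16 ± 0.14 (adjusted p = 0.00031) and -1.11 ± 0.19 (adjusted p = 0.0047). Of 43 neuronal genes 2 rose and 3 fell (median 0.07). Prph, an intermediate filament of peripheral neurons, read 7.04, 6.70 and 6.55 with Dox and 5.37, 5.21 and 5.46 with RA (-1.41 ± 0.17, adjusted p = 0.00032), and Syn2, a synaptic vesicle protein, rose by 1.22 ± 0.17 (adjusted p = 0.0010). Skor2, a transcriptional co-repressor of neurons, rose from 4.31, 3.61 and 4.12 to 5.84, 5.81 and 6.03 (1.88 ± 0.18, adjusted p = 9.1e-05).

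TGF-beta and BMP signalling had 2 rises and 5 falls among 35 genes, 4 rises and 10 falls with the block, and 0 to 10 falls when 1 array was left out (10 without Dox replicate 1, 0 without replicate 2). The ligand gene Bmp7 rose by 0.83 ± 0.14 (adjusted p = 0.0041) from 7.62, 7.84 and 8.09 to 8.71, 8.67 and 8.66. In hedgehog signalling 1 of 16 genes was called, the transcription factor gene Gli2, which fell by 0.99 ± 0.17 on the log2 scale (adjusted p = 0.0048), and 4 fell with the block. Wnt signalling had 1 rise and 2 falls among 39 genes (1 and 5 with the block) and FGF signalling 0 rises and 1 fall among 27 (1 and 4 with the block). All counts in this paragraph stand against 2.05% of all genes called higher and 2.89% lower. With the block these shares were 4.36% and 5.7%. Without the block the Wnt and FGF counts lie near them. Without Dox replicate 1 the falls numbered 4, 6 and 4 in the hedgehog, Wnt and FGF lists. Single genes of other lists fell, Ier3 (-1.20 ± 0.23, adjusted p = 0.0078), Adm (-1.12 ± 0.18, adjusted p = 0.0034) and Sesn2 (-0.66 ± 0.12, adjusted p = 0.0071). Adm belongs to the glycolysis and hypoxia list, in which 0 of 20 genes rose and 2 fell. Of 26 immediate early and dissociation stress genes 1 rose and 1 fell, counts near the shares over all genes. Of 31 neural progenitor genes 1 rose and 6 fell (10 falls with the block), and the falls numbered 7, 0 and 0 without Dox replicates 1, 2 and 3 and 0, 3 and 5 without Dox+RA replicates 1, 2 and 3. The rise was that of the transcription factor gene Sox21, at 1.06 ± 0.18 (adjusted p = 0.0048), whose second entry differed by 0.25. Of 32 mesoderm and cardiac genes 1 rose and 3 fell (5 falls with the block), and the falls, which were Foxc1, Isl1 and Mef2c with all arrays, numbered 4, 1 and 2 without Dox replicates 1, 2 and 3 and 2, 2 and 3 without Dox+RA replicates 1, 2 and 3. Mef2c changed by -1.52 ± 0.31 (adjusted p = 0.013; lost without Dox replicate 2 and on the 6 arrays alone, 0.0027 to 0.075 over its alternatives), and its second entry by -0.14. Among other lineages, pluripotency (28 genes), endoderm and yolk sac (28), blood and endothelium (30) and surface epithelium (22) had 0 called genes. At an unadjusted p under 0.05 they had 2, 0, 1 and 2 higher and 4, 3, 0 and 1 lower, and with the block 1, 0, 0 and 2 were called higher and 1, 1, 0 and 0 lower.

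Of 32 measured imprinted genes, a list made after the values were seen, 7 fell and 0 rose, against 2.89% of all genes called lower. The count describes the genes picked and tests nothing. Falls numbered 7, 2 and 3 without Dox replicates 1, 2 and 3, and 5, 5 and 4 without Dox+RA replicates 1, 2 and 3. Zim1 read 8.78, 8.79 and 9.16 with Dox and 7.17, 7.19 and 6.95 with RA (-1.80 ± 0.26, adjusted p = 0.0015), with 10.22 and 9.74 in control EBs, and its neighbour Peg3 read 9.85, 9.99 and 10.11 with Dox and 8.95, 9.24 and 9.10 with RA (-0.88 ± 0.12, adjusted p = 0.0010). In both genes all Dox+RA arrays lay below all Dox arrays and these below control EBs.

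The same contrast at day 12 was made on other arrays and called fewer genes, 205 (0.924%), 85 higher (0.383%) and 120 lower (0.541%). The 2 days are not independent. Deviations from the group means of same-numbered arrays correlated between days at 0.441, 0.352 and 0.513 for Dox. For Dox+RA they correlated at 0.302, 0.147 and 0.347. Of the genes higher at day 8, 49 were also called higher at day 12, which is 10.79% of the day 8 and 57.65% of the day 12 calls. Of those lower at day 8, 80 were also called lower at day 12, 12.5% and 66.67% of the calls, and 0 were called in opposite directions. Of the 454 genes higher at day 8, 424 had the same sign at day 12 (93.4%), with a median of 0.31 against 0.68 at day 8, and of the 640 lower 607 did (94.8%), with a median of -0.33 against -0.68. These genes were chosen by their day 8 values, and the shares of equal sign and the smaller medians at day 12 are given as a description. When the change between days was itself tested, 2 genes passed (0.00902%), Mx2 and Cbln2, and at an unadjusted p under 0.05 the effect was more positive at day 12 for 3.14% and more negative for 2.61% of genes.

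Hoxb5 rose by 2.31 ± 0.18 at day 12 (adjusted p = 2.4e-05), Hoxb4 by 1.76 ± 0.21 (adjusted p = 0.00077), Hoxb3 by 1.56 ± 0.14 (adjusted p = 5.3e-05) and Hoxb2 by 1.29 ± 0.17 (adjusted p = 0.0022). Outside HoxB, Hoxa5 rose at day 12 by 1.01 ± 0.20 (adjusted p = 0.028), and at day 8 it differed by 0.32 ± 0.20 (adjusted p = 0.44). In all, 5 of 10 HoxB, 1 of 9 HoxA, 0 of 9 HoxC and 0 of 8 HoxD genes rose at day 12, against 0.383% of all genes. Cyp26b1 rose by 2.47 ± 0.21 (adjusted p = 3.5e-05), Dhrs3 by 2.17 ± 0.24 (adjusted p = 0.00049) and Cib3 by 2.67 ± 0.24 (adjusted p = 5.3e-05). Of the interferon-stimulated genes 1 of 42 rose at day 12, Lgals3bp, by 0.63 ± 0.13 (adjusted p = 0.030), with a list median of 0.18. At an unadjusted p under 0.05, 15 of the 42 were higher and 0 lower at day 12, against 6.71% of all genes higher and 5.34% lower. Oasl2 differed by 0.78 ± 0.25 (adjusted p = 0.18), Usp18 by 0.94 ± 0.26 (adjusted p = 0.12) and Mx2 by 0.24 ± 0.12 (adjusted p = 0.46). In stereocilia and mechanotransduction 1 of 33 genes rose at day 12 (median 0.10), and Cdh23 differed by 0.07 ± 0.17 (adjusted p = 0.92). At the unadjusted threshold 7 were higher and 0 lower. In mitosis 1 of 29 fell, with a median of -0.47, and 16 were lower and 0 higher at the unadjusted threshold. Among all of these the change between days passed the test for Mx2 alone, so the other differences between days are not shown.

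**Figure D5:**
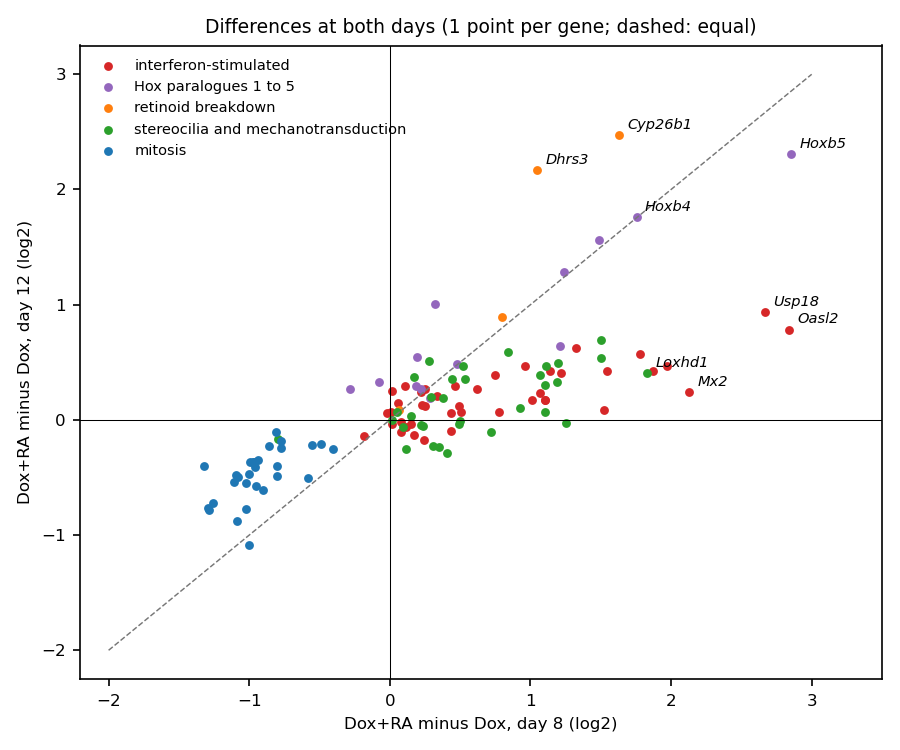
Difference between Dox+RA and Dox iHCs at day 12 (log2, y) against that at day 8 (log2, x), 1 point per gene of 5 lists, with the dashed line where both are equal. Hoxb4 lies on the line, Cyp26b1 and Dhrs3 above it, and Mx2 lies far below it at 2.13 and 0.24.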

How the data were processed

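RNA of 16 samples in 6 groups was hybridised to Mouse Gene 2.1 ST arrays. The authors deposited log2 expression values, 1 per array and probe set, made with Affymetrix Expression Console and RMA per the submitters' processing notes. RMA subtracts background, equalises the arrays' distributions and summarises probes, and it compresses differences of dim genes. The genome build is not given in the sources used here, nor are array strips or scan dates. Precision is limited by the number of arrays, 3 per iHC group and 2 per control group.

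Of 33708 entries, 23521 carried 1 gene symbol in the platform annotation, 1814 several and 8373 none, and 23328 matched RefSeq by Entrez gene ID. For the 1082 genes with several entries only the entry brightest on average was kept, giving 22180 genes. Values ran from 1.44 to 12.3 and array medians from 4.67 to 4.82. Groups were compared with limma 3.58.1 in R 4.3.3, as a model of 6 group means over the 16 arrays with eBayes, and p-values were Benjamini-Hochberg adjusted over all genes. A gene was called at an adjusted p under 0.05. The fit was tested on simulated data. Tables and plots were made in Python 3.11.15 with pandas 2.3.3 and matplotlib 3.10.9.

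Replicate numbers pair the samples: deviations from the group means of same-numbered Dox and Dox+RA arrays at day 8 correlated at 0.314, 0.247 and 0.320. A fit with the replicate number as a block was therefore an alternative, as were fewer arrays, each array left out, other scalings, a filter on dim genes, other priors and array weights.

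The rule for named genes takes the 3 induced factors and Myo7a, the 15 largest rises and 15 largest falls among called genes whose arrays do not overlap, up to 4 called members of each gene list (2 where none was called), members of the retinoid and Hox lists, and genes called for a change between days. The comparison and its gene lists were chosen with earlier results of these data known. The following names, and the 4 gene lists said to be made later, were chosen after their values were seen: Anxa2, Atp2b2, Bst2, Bub1b, Ccnb2, Cdh11, Cdh23, Cfap206, Cfap61, Col3a1, Dhx58, Dnah5, Dnah9, Epha7, Foxj1, Gbp3, H2-T23, Hydin, Ifih1, Ifit3, Irf7, Irf9, Isg15, Itga6, Lgals3bp, Lum, Mcidas, Mx1, Myo1h, Pcdh15, Peg3, Postn, Ptprc, Rsad2, Rsph1, Stat2, Stra8, Tapbp, Tmc1, Tpx2, Ttc21a, Tubb6 and Zfp503.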

Additional observations from a re-analysis of the deposited data

Results flagged for a closer look

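In 2 genes the effect of RA differed between days by limma's test of that difference over 22180 genes. For Mx2 the effect at day 12 minus that at day 8 was -1.89 ± 0.17 (adjusted p = 0.00054): the Dox+RA arrays stood above the Dox arrays by 2.13 at day 8 and by 0.24 at day 12. For Cbln2, a synapse organiser, it was -1.32 ± 0.19 (adjusted p = 0.0495), from -0.73 ± 0.13 at day 8 (adjusted p = 0.0060), where the arrays read 6.78, 6.55 and 6.68 with Dox and 5.72, 5.94 and 6.15 with RA, to -2.06 ± 0.13 at day 12 (adjusted p = 3.9e-06). The call of Mx2 held in all 20 alternatives that tested it (adjusted p 3.5e-05 to 0.012). That of Cbln2 lies at the threshold and held in 8 of 21 (adjusted p 0.0044 to 0.26); it was lost with the replicate block (0.0518), on the iHC arrays alone, without dim genes, with the trended robust prior and without any of 8 of the 12 iHC arrays.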

How the results depend on the processing

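No gene named and called at day 8 changed direction under any alternative run, but this was largely fixed in advance. Many alternatives, such as the block, the priors and the day 12 exclusions, keep the same difference of group means. Leaving out 1 array cannot reverse a gene whose arrays do not overlap, which holds for nearly all called genes. Of the 108 named genes called at day 8, 58 kept the call under every alternative and 50 lost it under at least 1: 59 kept it without Dox replicate 2, 67 without Dox replicate 3 and 101 without Dox replicate 1. The 1094 calls (454 higher, 640 lower) became 2230 (966 and 1264) with the replicate block on the 12 iHC arrays, 2277 (983 and 1294) with array weights, 2016 (851 and 1165) with the replicate block on the 6 arrays, an alternative chosen after seeing the data, and 336 (157 and 179) at an adjusted p under 0.01. Leaving out 1 of the 12 iHC arrays gave 333 to 1559 calls, 162 to 631 higher and 171 to 966 lower. The other settings, including dim genes left out, other scalings and the 6 arrays alone without a block, stayed within 1.5 times of the count. At day 12 the 205 calls became 29 on its 6 arrays alone, 628 with the replicate block, 635 with array weights, 50 at an adjusted p under 0.01 and 55 to 393 with 1 array left out. The 2 calls for a change between days became 1 on the fewer arrays, with or without the replicate block, 0 without dim genes, 1 with a trended robust prior, 24 with array weights, 1 at an adjusted p under 0.01 and 1 to 15 with 1 array left out. Mx2 was called in all 20 alternatives that tested it and is itself a dim gene, while Cbln2 was called in 8 of 21. With the replicate block 108 of the 108 named calls were kept on the 12 iHC arrays and 107 on the 6 arrays, where Chga was lost. Differences of dim genes are compressed by RMA, and no detection calls were used.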
